A study of Mus musculus with 8 samples.

Results

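The cell division genes described here are 50 genes that drive or carry out the cell cycle, from the D-type cyclins to the kinesins of cytokinesis. They were chosen by name from a list of cell cycle genes and found in the count matrix by their mouse Entrez identifiers, and all 50 were among its 27179 rows. RNA-seq had been performed, as 2 biological replicates per line, on the mouse mammary tumour cell lines 4T1.2, 4T1, 66cl4 (spelled 66c14 in the labels) and 67NR. The lines are isogenic cultured tumour cells of BALB/c origin, no agent or allele was labelled for any of them, and 4T1 and 4T1.2 are highly metastatic whereas 66cl4 and 67NR have low metastatic potential. Each level of metastatic ability is therefore represented by 2 related lines, and a difference between the levels cannot be told apart from a difference between these particular lines. The labels do not give the density of the cultures at harvest, and no growth rate was measured in these libraries. The question was whether the proliferation state differed between lines of different metastatic ability.

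D-type cyclins with Cdk4 or Cdk6 phosphorylate the retinoblastoma protein in G1, which releases the E2F factors that switch on the genes of DNA replication. Cyclin E and cyclin A with Cdk2 then carry the cell through S phase, and cyclin B with Cdk1 through mitosis, where checkpoint proteins hold the anaphase-promoting complex until the chromosomes are attached. Many of these transcripts rise and fall within each cycle, so their level in a bulk culture is widely used as a sign of how many cells are cycling. In bulk RNA, a smaller share of cells in a phase and less RNA per cell cannot be told apart.

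Total counts per library ran from 37159840 to 66269681, and the log2 CPM of replicates of one line correlated at 0.995 to 0.996 across genes, against 0.779 to 0.985 between lines. All values below are CPM, counts scaled to a common library size, after TMM scaling unless otherwise said, and differences are fitted log2 fold changes ± standard error. As CPM of the library totals, 6 markers of leucocytes summed to at most 4.80 and 5 of endothelial cells to at most 3.41 in any library. The epithelial markers Epcam and Cdh1 were at 0 to 7 counts in the 66cl4 and 67NR libraries, and the mesenchymal genes Zeb1 and Cdh2 at 0 to 28 counts in the 4T1.2 and 4T1 libraries. Of the other epithelial markers, Krt8 was at 463 to 607 CPM in 66cl4 and 67NR and 907 to 1603 in 4T1.2 and 4T1. Krt18 was at 113 to 115 CPM in 66cl4, 0.82 to 1.13 in 67NR and 541 to 1200 in 4T1.2 and 4T1. Krt14 was at 0.11 to 0.76 CPM and Krt5 at 0 to 9 counts over all libraries. The other 3 genes of the mesenchymal list did not move together, Fn1 and Twist1 being lower in 4T1/4T1.2 cells (log2 fold changes -1.22 and -0.86) and Vim higher (1.16). Vim was the most abundant of them, and the sum of the list in CPM of the library totals was 5040 to 6410 in 4T1.2 and 4T1 and 3120 to 5030 in 66cl4 and 67NR. The part of this epithelial and mesenchymal difference in the results below was not tested. The sum of 4 genes of RNA quality and cell stress, in CPM of the library totals, was 108 to 122 for 4T1.2 and 75.4 to 82.7 for 4T1. It was 80.0 to 86.4 for 66cl4 and 33.7 to 38.1 for 67NR. These 4 genes did not move together. In 4T1/4T1.2 cells Atf3, Fos and Ddit3 were higher (log2 fold changes 5.84, 0.94 and 0.23) and Hspa1a was lower (-3.55). Their part in the results below was not tested.

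The 66cl4 replicates stood apart for a few long genes, among them 3 of the 50 members. Cenpf, a kinetochore protein, had 195 and 236 CPM for 4T1.2, 229 and 233 for 4T1, 284 and 59.4 for 66cl4, and 104 and 129 for 67NR. Cenpe, a kinetochore motor, had 137 and 156 CPM for 4T1.2, 151 and 159 for 4T1, 279.7 and 81.3 for 66cl4, and 185 and 233 for 67NR. Mki67, the Ki-67 antigen that coats mitotic chromosomes, had 468 and 510.3 CPM for 4T1.2, 577 and 474 for 4T1, 915 and 307 for 66cl4, and 559.8 and 644 for 67NR. In each case replicate 1 of 66cl4 held the highest value of all 8 libraries and replicate 2 the lowest. Of 9506 genes whose CPM averaged at least 10, 55 were more than 2-fold higher in replicate 1 of 66cl4 and 0 in replicate 2, whereas the other lines had 0 to 5 such genes in either replicate. The 55 genes had a median length of 7619 bases against 2994 for all 9506, and the 49 of them with a transcript sequence had a median GC content of 39.5% against 49.5%. The other 47 members had ratios of replicate 1 to replicate 2 from 0.768 to 1.41 in 66cl4. Over all 9506 genes, the log2 ratio of replicate 1 to replicate 2 followed log2 gene length more closely in the other lines than in 66cl4. Its Pearson correlation with log2 length was 0.529 for 4T1.2, 0.67 for 4T1, 0.12 for 66cl4 and 0.38 for 67NR. The SD of that log2 ratio was 0.172, 0.255, 0.208 and 0.127 in the same order, widest for 4T1. The part that the preparation of the libraries had in these differences was not tested. Results on Mki67, Cenpe and Cenpf are given below with all libraries and without each 66cl4 library.

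**Figure D1:**
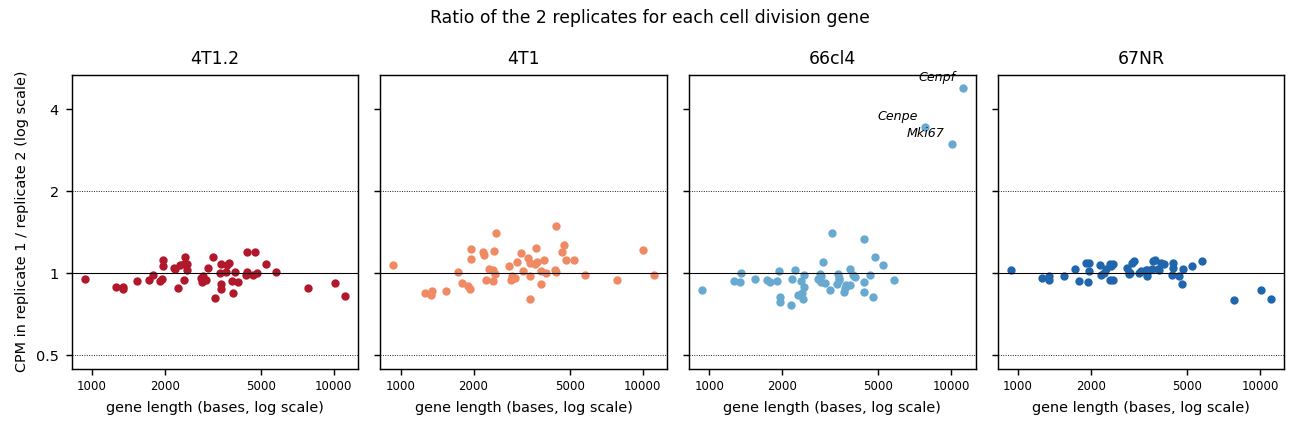
Ratio of the CPM in replicate 1 to that in replicate 2 (log scale) against gene length in bases (log scale), 1 point for each of the 50 cell division genes, in each line; dotted lines mark 0.5 and 2. In 66cl4, Cenpf, Cenpe and Mki67 lie above 2, the other 47 genes lie between 0.768 and 1.41, and no member passes 2 in the other lines.

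Transcription of these genes is timed by short promoter elements. E2F factors act on late G1 and S phase genes, and the MuvB complexes on mitotic genes through the cell cycle genes homology region, often near CCAAT boxes bound by NF-Y. RefSeq promoter sequences (GRCm38.p6, 250 bases before to 50 after the start, both strands searched) were found for 39 of the 50 members, and Aurkb, Ccne2, Ccnd1, Ccnd2, Kif20a, Tpx2, Mcm4, Cdc25c, Rb1, Foxm1 and Ccna2 had no entry. The letters TTTGAA of the homology region were in 15 of the 39 promoters (38.5%), against 18.1% of all 27025 promoters and 12.1% of the 10927 promoters of genes tested. They were in 14 of the 21 promoters of members with a G2 or mitotic role (66.7%) and in 1 of the 18 of members with a G1, S phase or replication role (5.56%). CCAAT was in 30 of the 39 (76.9%), against 37.9% of all promoters and 39.4% of those of genes tested. An E2F word (TTTCCCGC, TTTCGCGC, TTTGCCGC or TTTGGCGC) was in 8 of the 39 (20.5%), against 2.32% of all promoters and 4.05% of those of genes tested. Of these 8, 7 belonged to members with a G1, S phase or replication role. These are matches of letters and say nothing of binding in these lines.

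Of the members whose levels are described below, 3 show the elements, with matches to any of these words in capitals. The sequence of Mcm6 (chr1:128359706-128359855, minus strand) holds E2F words, the first 2 overlapping on opposite strands, and CCAAT boxes, and those of Top2a (chr11:99024200-99024339, minus strand) and Kif11 (chr19:37376232-37376381, plus strand) hold the homology region and CCAAT boxes. All lie upstream of the gene in GRCm38.
Mcm6: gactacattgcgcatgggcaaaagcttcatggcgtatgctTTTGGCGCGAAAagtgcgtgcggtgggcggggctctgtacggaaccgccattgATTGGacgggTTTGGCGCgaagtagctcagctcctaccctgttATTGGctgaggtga
Top2a: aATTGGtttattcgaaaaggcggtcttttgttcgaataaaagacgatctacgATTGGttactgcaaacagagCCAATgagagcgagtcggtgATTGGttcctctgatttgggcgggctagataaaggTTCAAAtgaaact
Kif11: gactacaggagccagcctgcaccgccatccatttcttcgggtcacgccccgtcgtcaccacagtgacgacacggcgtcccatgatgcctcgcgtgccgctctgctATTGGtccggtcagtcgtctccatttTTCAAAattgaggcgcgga
The printed bases hold 1 homology region and 4 CCAAT boxes for Top2a, and 1 of each for Kif11. The part of these elements in the levels described below was not tested.

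Between the pairs of lines, 4T1/4T1.2 and 66cl4/67NR, 27 members had a higher mean in the highly metastatic pair, 9 had a lower one and 14 did not differ at the threshold (edgeR quasi-likelihood test, Benjamini-Hochberg adjusted p under 0.05). Over all 13922 genes tested, 76.8% were called in this comparison, 38.1% as higher and 38.6% as lower. Of the members, 54.0% were called higher and 18.0% lower. Scaled by library totals in place of TMM, 20 members were higher and 11 lower, against 4461 and 6187 of all 13922 genes. The totals in this and later fits were the summed counts of the tested genes, whereas the marker sums above used all counts. The median log2 fold change of the members was 0.25, against -0.01 for all genes tested. The changes were small: no member was more than 2-fold higher in 4T1/4T1.2 cells and 3 were more than 2-fold lower (Ccnd2, Rb1 and Kif11), against 15.9% and 16.1% of all genes. The median size of the change was 0.36 on the log2 scale for the members and 0.59 for all genes. The 4 libraries of 4T1.2 and 4T1 lay above all 4 of 66cl4 and 67NR for 17 members and below them for 7, against 27.8% and 27.7% of all genes.

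**Figure D2:**
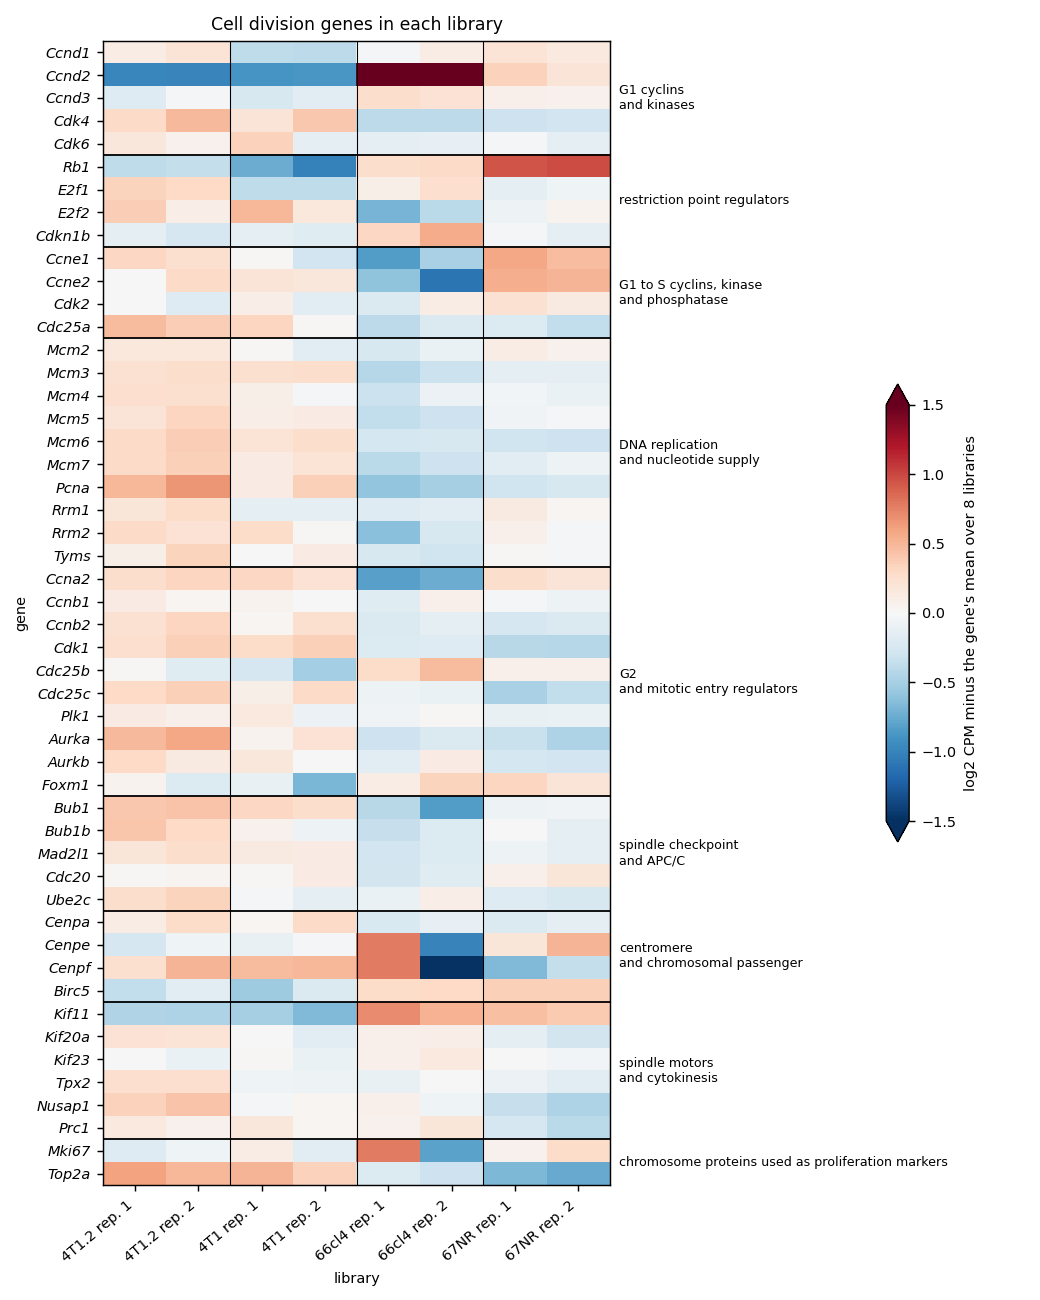
Level of the 50 cell division genes (rows, by role) in the 8 libraries (columns), as log2 CPM minus the gene's mean over the libraries, from blue (below the mean) to red (above). Mcm3, Mcm5, Mcm6, Mcm7, Pcna, Cdk4, Aurka, Bub1 and Top2a are red in 4T1.2 and 4T1, Ccnd2, Rb1, Kif11 and Birc5 are red in 66cl4 and 67NR, and Cenpe, Cenpf and Mki67 differ between the 66cl4 replicates.

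Taken as 1 sum, the 50 members held 1.60% ± 0.03 (SD, n = 2) of all counts in 4T1.2 cells, against 1.36% ± 0.09 for 4T1, 1.39% ± 0.02 for 66cl4 and 1.45% ± 0.02 for 67NR. 4T1.2 had the largest sum, and 4T1, 66cl4 and 67NR lay within 1.30% to 1.47% in every library, so the sum did not separate the highly metastatic lines from the other pair. Ccnd1, by far the most abundant D-type cyclin, weighed heavily on it. Without the D-type cyclins, Mki67, Cenpe and Cenpf, the other 44 members held 1.19% ± 0.04 for 4T1.2, 1.05% ± 0.06 for 4T1, 0.947% ± 0.054 for 66cl4 and 0.987% ± 0.021 for 67NR, and the 4T1.2 libraries were the highest. The lowest 4T1 library (1.006%) and the highest of 67NR (1.002%) lay close together, and as a share of the counts of the tested genes only they overlapped, at 1.08% and 1.083%. Gene by gene, 4T1.2 was the highest line for 28 members, 67NR for 9, 66cl4 for 8 and 4T1 for 5. The lowest line was 66cl4 for 20 members, 67NR for 16, 4T1 for 8 and 4T1.2 for 6. The highest line exceeded the lowest by more than 2-fold for 9 members, namely Ccnd2, Rb1, Ccne1, Ccne2, Pcna, Ccna2, Bub1, Kif11 and Top2a.

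**Figure D3:**
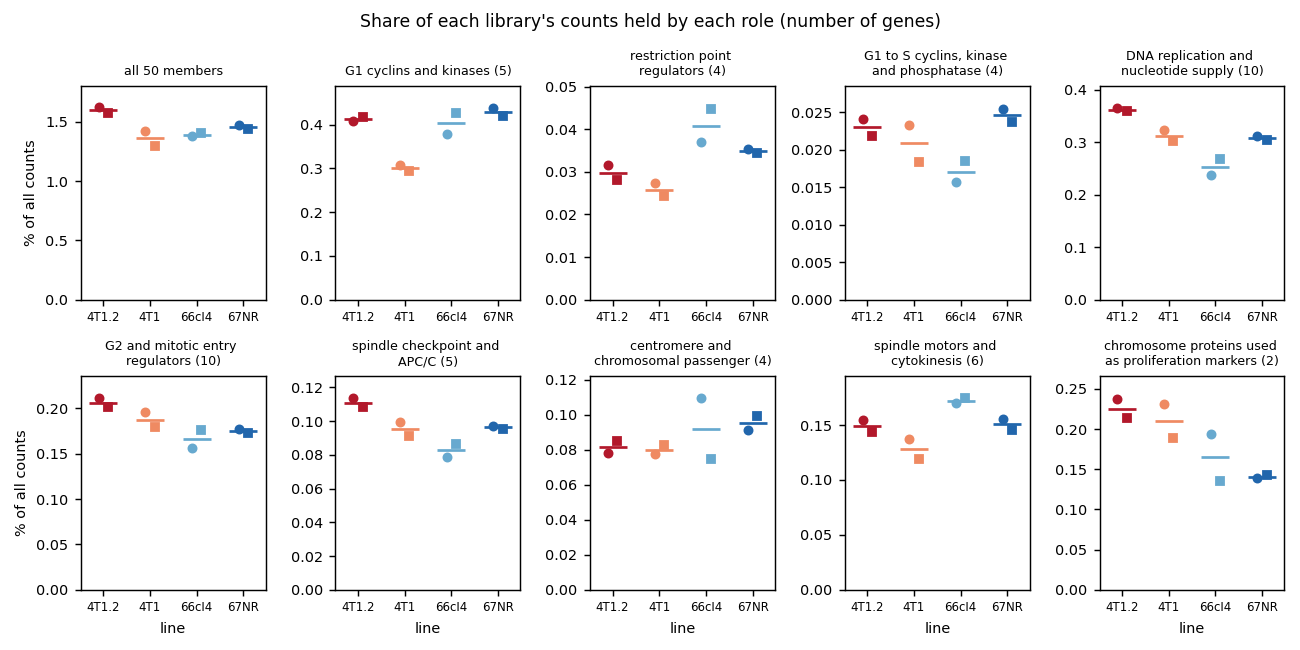
Share of each library's counts, in percent, held by all 50 members and by each of the 9 roles, by line (circle, replicate 1; square, replicate 2; bar, mean); each panel has its own axis from 0. The replication genes hold 0.362% in 4T1.2 and 0.253% in 66cl4, the spindle motors are highest in 66cl4 at 0.172%, and G1 cyclins and kinases are lowest in 4T1 at 0.301%.

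Among the 5 G1 cyclins and kinases, 1 was higher in the highly metastatic pair and 3 were lower. The largest difference of all members was that of Ccnd2 (Entrez gene 12444, chromosome 6, 127125162 to 127152188), which encodes cyclin D2. It had 58.8 and 58.0 CPM for 4T1.2, 62.7 and 63.4 for 4T1, 339 and 358 for 66cl4, and 147 and 132 for 67NR. The 66cl4 values were the highest, the 67NR values followed, and 4T1.2 and 4T1 lay close together below both (log2 fold change -1.86 ± 0.06, edgeR adjusted p = 1.84e-09), which is 3.63-fold lower in 4T1/4T1.2 cells. Ccnd1, encoding cyclin D1, had 3425 and 3648 CPM for 4T1.2, 2437 and 2399.7 for 4T1, 3115 and 3428 for 66cl4, and 3654 and 3499 for 67NR. Its 4T1 libraries lay below all others while those of 4T1.2 overlapped 66cl4 and 67NR (log2 fold change -0.23 ± 0.08, edgeR adjusted p = 0.0216), and the call was lost without any 1 of 4 libraries, with adjusted p from 0.0504 without replicate 2 of 67NR to 0.0806 without replicate 1 of 67NR by edgeR. Ccnd3, encoding cyclin D3, had 79.4 and 89.8 CPM for 4T1.2, 76.7 and 81.3 for 4T1, 109 and 106 for 66cl4, and 95.6 and 95.3 for 67NR. All its 4T1.2 and 4T1 libraries lay below those of 66cl4 and 67NR (log2 fold change -0.31 ± 0.06, edgeR adjusted p = 0.00134).

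Set against each other per length, as RPKM, Ccnd1 was the main D-type cyclin in every line, at 93.3% to 95.1% of the RPKM of the family in 4T1.2, 4T1 and 67NR and at 88.9% ± 0.6 (SD, n = 2) in 66cl4. Ccnd2 made up 1.03% ± 0.06 of the family RPKM in 4T1.2, 1.60% ± 0.02 in 4T1, 2.40% ± 0.10 in 67NR and 6.23% ± 0.15 in 66cl4, so its share separated all 4 lines beyond the spread of their replicates. Cdk4 (Entrez gene 12567, chromosome 10, 127063535 to 127067288), the main kinase partner of these cyclins, had 802 and 918 CPM for 4T1.2, 749 and 870.3 for 4T1, 499.6 and 499 for 66cl4, and 526 and 537 for 67NR. It was higher in all 4 libraries of 4T1.2 and 4T1, by 1.62-fold (log2 fold change 0.70 ± 0.08, edgeR adjusted p = 1.54e-05). Cdk6, the alternative partner, had 15.4 and 14.3 CPM for 4T1.2, 17.4 and 12.4 for 4T1, 12.4 and 12.5 for 66cl4, and 13.5 and 12.5 for 67NR. Its groups overlapped and it was not called (log2 fold change 0.23 ± 0.11, edgeR adjusted p = 0.0816), except without replicate 2 of 4T1, where the log2 fold change was 0.34 and the edgeR adjusted p 0.00364. By RPKM, Ccnd1 and Cdk4 were the first and second most abundant members in every line, Ccnd1 at 637 to 942 RPKM and Cdk4 at 371 to 638 RPKM, against a median of the members of 60.5 to 79.3 RPKM.

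Of the 4 restriction point regulators, 1 was higher in the highly metastatic pair and 2 were lower. Rb1 (Entrez gene 19645, chromosome 14, 73192858 to 73325951), which encodes the retinoblastoma protein that restrains the E2F factors, had 24.8 and 25.1 CPM for 4T1.2, 19.2 and 16.0 for 4T1, 38.8 and 39.4 for 66cl4, and 62.0 and 63.6 for 67NR. The lines did not overlap, in the order 67NR, 66cl4, 4T1.2 and 4T1, and the level in 4T1/4T1.2 cells was 2.36-fold lower (log2 fold change -1.24 ± 0.07, edgeR adjusted p = 1.61e-07). E2f1, an activating E2F factor, had 102 and 98.7 CPM for 4T1.2, 61.5 and 61.8 for 4T1, 85.5 and 96.1 for 66cl4, and 72.4 and 76.7 for 67NR. 4T1.2 was the highest line and 4T1 the lowest, and the pairs of lines did not differ at the threshold (log2 fold change -0.07 ± 0.06, edgeR adjusted p = 0.356). E2f2, another activating E2F factor, had 18.7 and 15.6 CPM for 4T1.2, 20.5 and 16.2 for 4T1, 8.97 and 11.0 for 66cl4, and 13.8 and 15.1 for 67NR. It was higher in 4T1/4T1.2 cells, with 66cl4 at the lowest values (log2 fold change 0.56 ± 0.11, edgeR adjusted p = 0.00108). Cdkn1b, encoding the kinase inhibitor p27, had 193 and 178 CPM for 4T1.2, 195 and 189 for 4T1, 264 and 313 for 66cl4, and 210.2 and 194 for 67NR. Its levels were highest in 66cl4 and those of 67NR lay above 4T1.2 and overlapped 4T1 (log2 fold change -0.36 ± 0.07, edgeR adjusted p = 0.00118).

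The 4 genes of the G1 to S transition held 2 higher members and 0 lower ones. Cdc25a, the phosphatase that activates Cdk2, had 102 and 95.2 CPM for 4T1.2, 92.0 and 74.4 for 4T1, 56.0 and 63.4 for 66cl4, and 63.6 and 57.2 for 67NR. It was higher in all 4T1.2 and 4T1 libraries (log2 fold change 0.59 ± 0.09, edgeR adjusted p = 1.23e-04). Ccne2, encoding cyclin E2, had 37.7 and 46.4 CPM for 4T1.2, 43.5 and 42.5 for 4T1, 25.0 and 17.7 for 66cl4, and 55.2 and 53.9 for 67NR. Here 67NR was the highest line and 66cl4 the lowest, with 4T1.2 and 4T1 between them (log2 fold change 0.32 ± 0.11, edgeR adjusted p = 0.0226), and the call was lost without any 1 of 4 libraries, the highest adjusted p by edgeR being 0.0952 without replicate 2 of 4T1.2. Ccne1 had the same order of 67NR and 66cl4 (log2 fold change 0.14) and Cdk2 a log2 fold change of -0.13, and neither was called.

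In DNA replication and nucleotide supply, 8 of 10 members were higher and 0 lower, a share of 80.0% that the spindle checkpoint role also had. Pcna (Entrez gene 18538, chromosome 2, 132249286 to 132253180), the sliding clamp of DNA polymerase, had 409.9 and 459.9 CPM for 4T1.2, 317 and 374 for 4T1, 193 and 207 for 66cl4, and 236 and 246 for 67NR. All 4T1.2 and 4T1 libraries lay above the others, by 1.77-fold (log2 fold change 0.82 ± 0.07, edgeR adjusted p = 4.30e-06). Mcm6, a subunit of the MCM helicase that unwinds DNA at origins, had 539.5 and 569.7 CPM for 4T1.2, 508 and 530.2 for 4T1, 368 and 376 for 66cl4, and 359 and 358 for 67NR. Again the groups did not overlap (log2 fold change 0.55 ± 0.06, edgeR adjusted p = 1.28e-05). Of the other helicase subunits, Mcm3, Mcm4, Mcm5 and Mcm7 were higher by 0.27 to 0.50 on the log2 scale with groups that did not overlap, and Mcm2 had a log2 fold change of 0.08 and was not called. Rrm2, the regulated subunit of ribonucleotide reductase, had 437 and 414 CPM for 4T1.2, 433 and 362 for 4T1, 232 and 302 for 66cl4, and 378 and 352 for 67NR. It was higher in 4T1/4T1.2 cells although 1 library of 67NR lay within their range (log2 fold change 0.40 ± 0.09, edgeR adjusted p = 0.00334). Rrm1, its partner subunit, had 678 and 727 CPM for 4T1.2, 545 and 546 for 4T1, 524 and 539 for 66cl4, and 661 and 612 for 67NR. It was highest in 4T1.2 and its groups overlapped (log2 fold change 0.09 ± 0.06, edgeR adjusted p = 0.214). Tyms, thymidylate synthase, was higher by 0.28.

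The 10 regulators of G2 and mitotic entry held 6 higher and 2 lower members. Aurka, the Aurora A kinase of the spindle poles, had 202 and 215 CPM for 4T1.2, 149.5 and 167 for 4T1, 116 and 124 for 66cl4, and 114 and 104 for 67NR. It was higher in every 4T1.2 and 4T1 library, and 4T1.2 lay above 4T1 (log2 fold change 0.67 ± 0.07, edgeR adjusted p = 8.22e-06). Cdk1, the kinase that starts mitosis, had 570.4 and 615 CPM for 4T1.2, 578 and 612 for 4T1, 416 and 418 for 66cl4, and 359 and 355 for 67NR. The order of the lines was 4T1.2 and 4T1 together, then 66cl4, then 67NR (log2 fold change 0.62 ± 0.06, edgeR adjusted p = 7.17e-06). Ccna2, encoding cyclin A2, had 363 and 377 CPM for 4T1.2, 373 and 351 for 4T1, 172 and 180.3 for 66cl4, and 362 and 345 for 67NR. The 66cl4 libraries were low and the other 3 lines lay between 345 and 377, so that 67NR overlapped 4T1 despite the pooled difference (log2 fold change 0.55 ± 0.06, edgeR adjusted p = 1.41e-05). Foxm1, a transcription factor of G2 and M phase genes, had 190.2 and 158 CPM for 4T1.2, 169 and 113 for 4T1, 197 and 229 for 66cl4, and 228 and 209 for 67NR. It lay below the 66cl4 and 67NR libraries in every 4T1.2 and 4T1 library (log2 fold change -0.46 ± 0.12, edgeR adjusted p = 0.00638), the opposite direction to Aurka and Cdk1. The phosphatase gene Cdc25b was the other lower member, at -0.46 on the log2 scale, whereas Cdc25c was higher by 0.51, Ccnb2 by 0.42 and Aurkb by 0.30. Ccnb1 and Plk1, at 0.10 and 0.13, were not called.

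**Figure D4:**
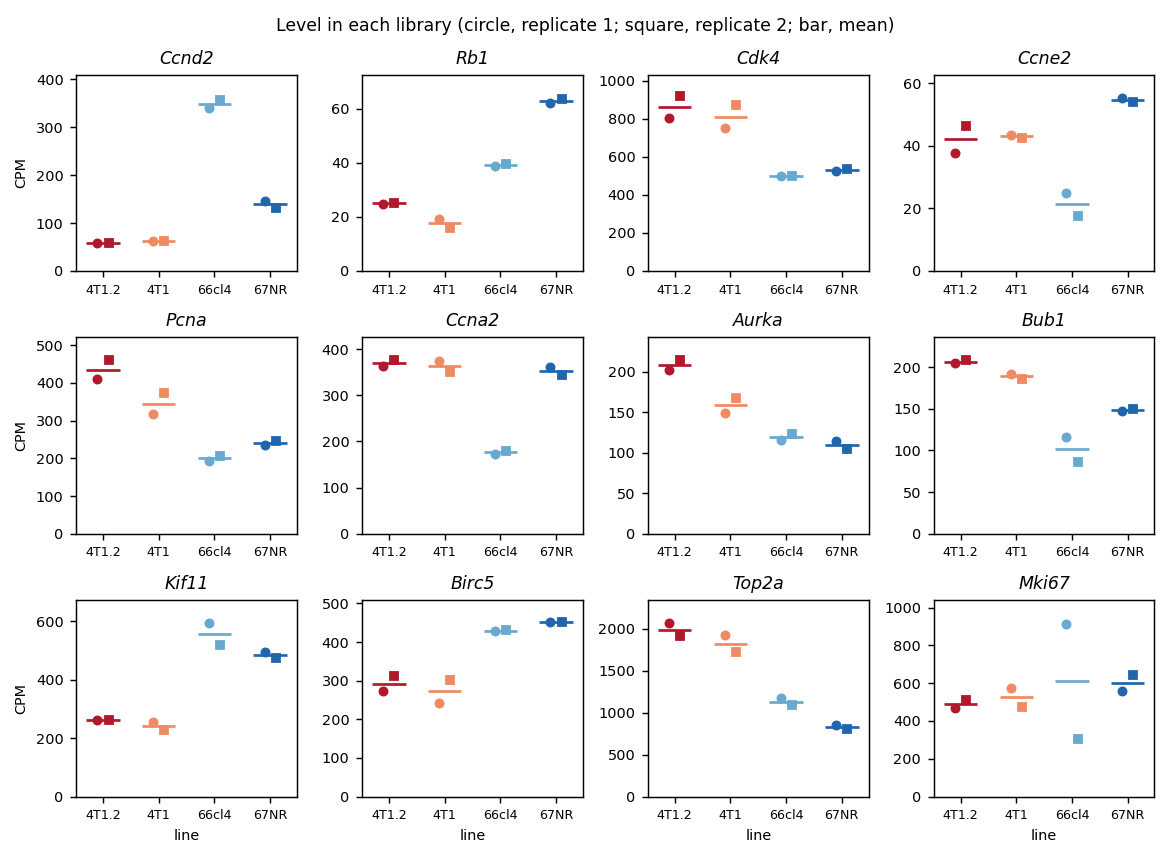
CPM of 12 members in each library, by line (circle, replicate 1; square, replicate 2; bar, mean), each panel with its own axis from 0. Ccnd2, Rb1, Kif11 and Birc5 are lowest in 4T1.2 and 4T1, Cdk4, Pcna, Aurka, Bub1 and Top2a highest there, Ccne2 and Ccna2 are low in 66cl4 alone, and the 66cl4 replicates of Mki67 stand at 915 and 307.

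Of the 5 genes of the spindle checkpoint and the anaphase-promoting complex, 4 were higher in the highly metastatic pair and 0 lower. Bub1, a checkpoint kinase, had 205 and 208 CPM for 4T1.2, 192 and 186 for 4T1, 116 and 86.6 for 66cl4, and 147 and 149 for 67NR. All 4T1.2 and 4T1 libraries lay above 67NR, which lay above 66cl4 (log2 fold change 0.69 ± 0.09, edgeR adjusted p = 4.68e-05). Mad2l1, the checkpoint protein Mad2, had 195 and 207 CPM for 4T1.2, 189 and 188 for 4T1, 141 and 149 for 66cl4, and 163 and 157 for 67NR. Its groups did not overlap (log2 fold change 0.36 ± 0.06, edgeR adjusted p = 2.69e-04). Ube2c, the ubiquitin-conjugating enzyme of the anaphase-promoting complex, had 297 and 311 CPM for 4T1.2, 242 and 226 for 4T1, 230.4 and 264 for 66cl4, and 215 and 209.6 for 67NR. It was high in 4T1.2 and overlapped between 4T1 and 66cl4 (log2 fold change 0.22 ± 0.07, edgeR adjusted p = 0.0123), and with the trend on gene length removed from each library its log2 fold change turned to -0.04 and was not called. Without replicate 2 of 67NR the edgeR adjusted p of Ube2c was 0.0512. Bub1b was higher by 0.35 and Cdc20, at 0.10, was not called.

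Centromere and chromosomal passenger genes were divided. Birc5, encoding survivin, a subunit of the passenger complex and an inhibitor of apoptosis, had 272 and 312 CPM for 4T1.2, 243 and 303 for 4T1, 427 and 431 for 66cl4, and 452 and 452 for 67NR. It was lower in every 4T1.2 and 4T1 library, by 1.56-fold (log2 fold change -0.64 ± 0.08, edgeR adjusted p = 5.15e-05). Cenpa, the histone H3 variant of centromeres, had 234 and 263 CPM for 4T1.2, 221 and 265 for 4T1, 184 and 199 for 66cl4, and 186 and 197 for 67NR. It was higher in 4T1/4T1.2 cells without overlap (log2 fold change 0.36 ± 0.08, edgeR adjusted p = 0.00171). For Cenpf, the pooled log2 fold change was 0.66 ± 0.36 and was not called with all libraries, but was called without either 66cl4 library, at 1.42 without replicate 1 and 0.29 without replicate 2. For Cenpe, the pooled log2 fold change was -0.37 ± 0.29 with all libraries, not called, 0.21, not called, without replicate 1 of 66cl4, and -0.68, called, without replicate 2.

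The 6 genes of spindle motors and cytokinesis held 3 higher members and 1 lower, and 1 higher and 2 lower when scaled by library totals. Kif11 (Entrez gene 16551, chromosome 19, 37376382 to 37421863), the kinesin that pushes the spindle poles apart, had 263 and 263 CPM for 4T1.2, 256 and 228 for 4T1, 593 and 518 for 66cl4, and 494 and 475 for 67NR. Every 66cl4 and 67NR library lay above every 4T1.2 and 4T1 library, and the level in 4T1/4T1.2 cells was 2.06-fold lower (log2 fold change -1.04 ± 0.07, edgeR adjusted p = 4.39e-07). Nusap1, a spindle microtubule protein, had 224 and 237 CPM for 4T1.2, 174 and 180.2 for 4T1, 186 and 169 for 66cl4, and 139 and 128 for 67NR. The order was 4T1.2, then 4T1 with 66cl4, then 67NR (log2 fold change 0.39 ± 0.06, edgeR adjusted p = 2.62e-04). Prc1, a bundler of midzone microtubules, had 311 and 295 CPM for 4T1.2, 316 and 288 for 4T1, 294 and 319.6 for 66cl4, and 236 and 213 for 67NR. The 67NR libraries were low and the other 3 lines overlapped (log2 fold change 0.20 ± 0.07, edgeR adjusted p = 0.0184), and the call was lost without replicate 1 of 4T1.2, replicate 1 of 66cl4 or replicate 2 of 67NR, with edgeR adjusted p of 0.0540, 0.0624 and 0.0890. Tpx2 was higher by 0.18, a call lost without replicate 1 of 66cl4 or replicate 2 of 67NR (edgeR adjusted p of 0.0527 and 0.0703), and Kif20a (0.12) and Kif23 (-0.09) were not called.

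Of the 2 chromosome proteins in common use as proliferation markers, 1 was higher and the other was not called. Top2a (Entrez gene 21973, chromosome 11, 98992947 to 99024199), the topoisomerase that untangles sister chromatids, had 2067 and 1910.4 CPM for 4T1.2, 1929 and 1719 for 4T1, 1172 and 1091 for 66cl4, and 854 and 804 for 67NR. The order was 4T1.2 with 4T1, then 66cl4, then 67NR, and the level in 4T1/4T1.2 cells was 1.97-fold higher (log2 fold change 0.98 ± 0.08, edgeR adjusted p = 1.25e-06), the largest increase of any member. Mki67 (Entrez gene 17345, chromosome 7, 135689784 to 135716450), whose values are given above, had no difference at the threshold (log2 fold change -0.26 ± 0.26, edgeR adjusted p = 0.389). Without replicate 1 of 66cl4 it was still not called, and without replicate 2 its log2 fold change was -0.55 with an edgeR adjusted p of 9.47e-04, so the side of the threshold on which Mki67 fell rested on 1 library.

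**Figure D5:**
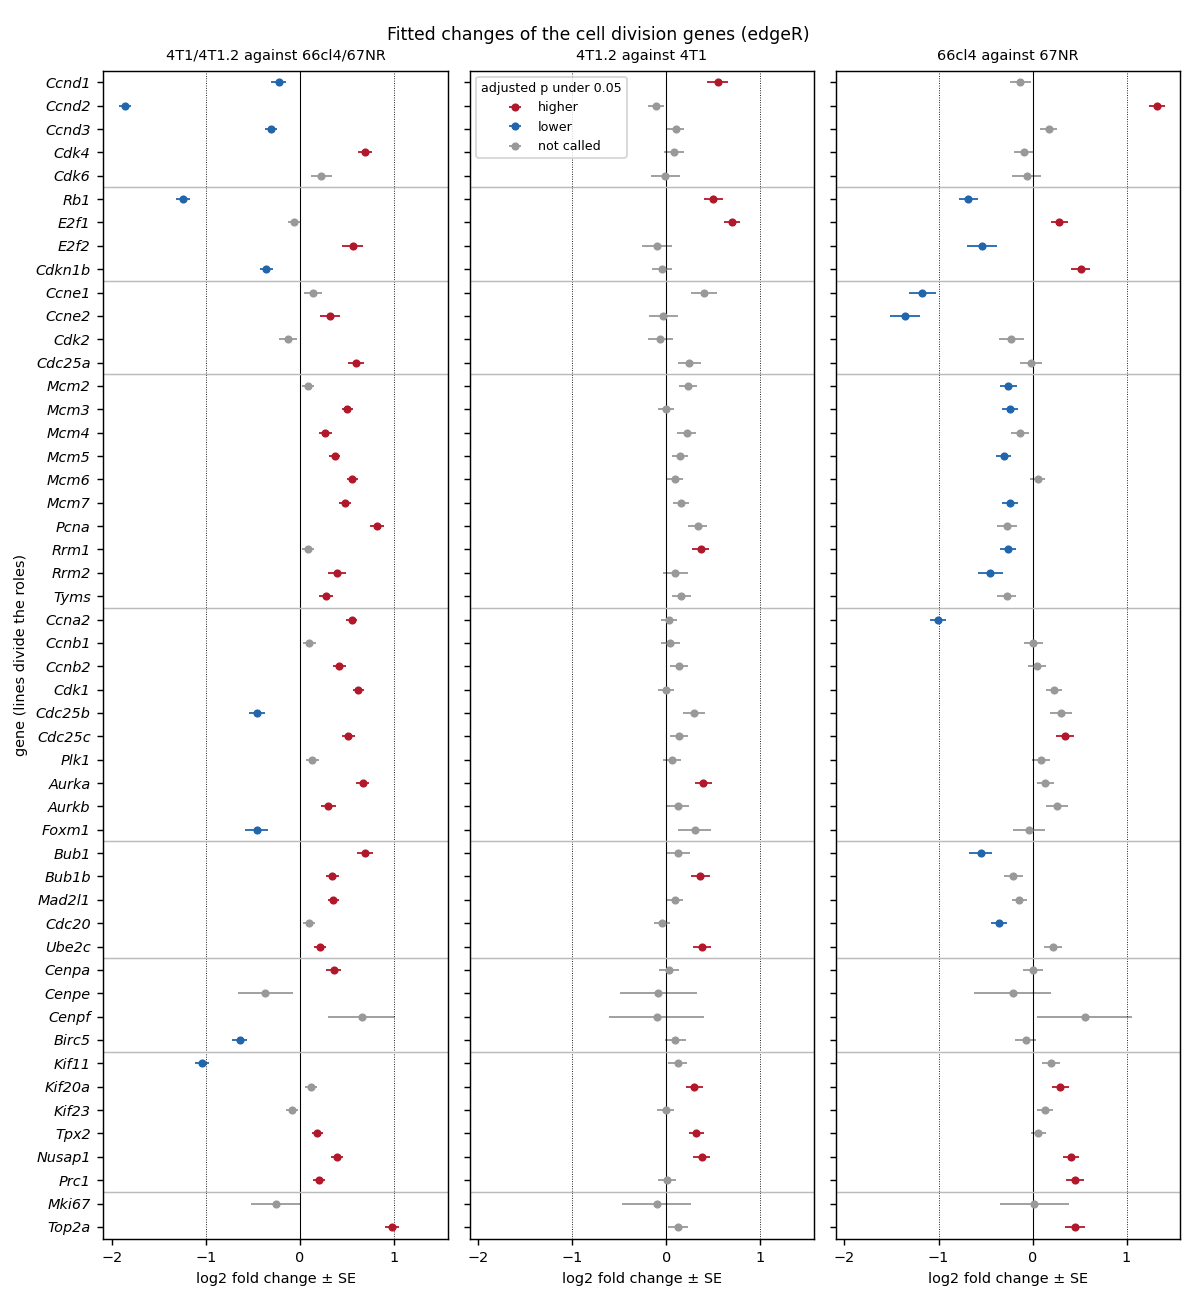
Fitted log2 fold change ± standard error of each member (edgeR) for 4T1/4T1.2 against 66cl4/67NR, 4T1.2 against 4T1 and 66cl4 against 67NR, with members called higher in red, lower in blue and not called in grey; dotted lines mark 2-fold. Most members lie within 2-fold of 0 in all 3 comparisons, 27 are red and 9 blue in the first, 10 red and 0 blue in the second, and 8 red and 13 blue in the third.

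Within the highly metastatic pair, 10 members were higher in 4T1.2 than in 4T1 and 0 were lower, against 9.37% and 9.93% of all genes tested. DESeq2 called 12 members higher and 0 lower, against 1444 and 1442 of all 13922 genes. At an unadjusted p under 0.05, edgeR gave 14 members as higher and 0 as lower, a threshold at which all genes were not counted. The largest difference was that of E2f1 (log2 fold change 0.70 ± 0.09, edgeR adjusted p = 6.20e-04). It was followed by Ccnd1 (log2 fold change 0.55 ± 0.11, edgeR adjusted p = 0.00711), Rb1 (log2 fold change 0.50 ± 0.10, edgeR adjusted p = 0.00863), Aurka (log2 fold change 0.40 ± 0.09, edgeR adjusted p = 0.016), Ube2c (log2 fold change 0.38 ± 0.09, edgeR adjusted p = 0.0187), Nusap1 (log2 fold change 0.38 ± 0.09, edgeR adjusted p = 0.0155) and Rrm1 (log2 fold change 0.37 ± 0.09, edgeR adjusted p = 0.0181). Bub1b, Tpx2 and Kif20a were higher by 0.30 to 0.36. All 10 had both 4T1.2 libraries above both 4T1 libraries, which adds nothing to the calls because they came from the same libraries. The median log2 fold change of the members was 0.12, against 0.00 for all genes. E2f1 was the only one of the 10 still called without each library in turn. Leaving out either 4T1.2 library left 1 library in that line, and fewer members and fewer of all genes were then called.

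Of the 10 members called in 4T1.2 against 4T1, 6 lie on chromosome 2, which holds 9 of the 50 members. These 6 are E2f1, Aurka, Bub1b, Ube2c, Tpx2 and Nusap1. The 1110 tested genes of chromosome 2 had a median log2 fold change of 0.27 in this comparison, and the 9 members there had one of 0.36. Of the 41 members on other chromosomes, 4 were higher (9.76%), close to the 9.37% of all genes, and their median log2 fold change was 0.10. Gene copy number was not measured, and its part in these differences was not tested.

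Within the pair of low metastatic potential, 8 members were higher and 13 lower in 66cl4 than in 67NR, against 22.3% and 22.4% of all genes. The G1 to S cyclins and cyclin A2 showed the largest decreases, Ccne2 (log2 fold change -1.35 ± 0.16, edgeR adjusted p = 1.06e-04), Ccne1 (log2 fold change -1.17 ± 0.14, edgeR adjusted p = 1.35e-04) and Ccna2 (log2 fold change -1.004 ± 0.08, edgeR adjusted p = 1.38e-05), and Ccnd2 the largest increase (log2 fold change 1.32 ± 0.09, edgeR adjusted p = 3.01e-06). Replication genes were lower in 66cl4 for 6 of 10 and higher for 0, with Rrm2 (log2 fold change -0.45 ± 0.13, edgeR adjusted p = 0.0211) as the largest, and Mcm2, Mcm3, Mcm5, Mcm7 and Rrm1 at -0.24 to -0.31. Spindle motor and cytokinesis genes were higher in 66cl4 for 3 of 6 and lower for 0, with Prc1 (log2 fold change 0.45 ± 0.10, edgeR adjusted p = 0.00384), Nusap1 (log2 fold change 0.41 ± 0.09, edgeR adjusted p = 0.00443) and Kif20a (log2 fold change 0.30). Of the regulators, Rb1 was lower (log2 fold change -0.68 ± 0.10, edgeR adjusted p = 5.03e-04), E2f2 was lower (log2 fold change -0.54 ± 0.16, edgeR adjusted p = 0.0219), and Cdkn1b (log2 fold change 0.51 ± 0.10, edgeR adjusted p = 0.00261) and E2f1 (log2 fold change 0.28 ± 0.09, edgeR adjusted p = 0.0264) were higher. Bub1 and Cdc20 had log2 fold changes of -0.55 and -0.36, and Top2a was higher (log2 fold change 0.45 ± 0.11, edgeR adjusted p = 0.00703). Calls held without each library in turn for 7 of the 21, namely Ccnd2, Cdkn1b, Rb1, Ccne1, Ccne2, Ccna2 and Bub1. Without either 67NR library, or without replicate 1 of 66cl4, fewer members and fewer of all genes were called. For Mki67, the log2 fold change was 0.02 with all libraries, -0.97 without replicate 1 of 66cl4 and 0.60 without replicate 2, for Cenpf 0.55, -0.98 and 1.28, and for Cenpe -0.21, -1.36 and 0.42. With all libraries none of the 3 was called, and of the fits with 1 library of 66cl4 only that of Cenpe without replicate 2 made no call.

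Compared line by line, 4T1.2 had 24 members higher and 4 lower than 67NR (33.8% and 34.1% of all genes) and 29 higher and 7 lower than 66cl4 (34.3% and 34.6%). 4T1 had 17 higher and 11 lower than 67NR (33.9% and 34.4%) and 23 higher and 10 lower than 66cl4 (34.9% and 35.2%). For 4T1 against 67NR, the share of members called higher was 34.0%, close to that of all genes. Scaled by library totals, 9 members were higher and 14 lower, so the balance turned. Of all 13922 genes, 3782 were then higher and 5684 lower, so all genes leaned the same way. Without either 4T1 library, more members and more of all genes were called lower in 4T1.2 than in 67NR. These comparisons share libraries. Of the members, 14 (28.0%) were higher in all of them, against 21.8% of all genes, namely Cdk4, Cdc25a, Mcm3, Mcm6, Mcm7, Pcna, Ccnb2, Cdk1, Cdc25c, Aurka, Bub1, Mad2l1, Cenpa and Top2a, and 4 (8.0%) were lower in all, against 20.7%, namely Ccnd2, Rb1, Birc5 and Kif11. Scaled by library totals, 7 were higher in all (Cdk4, Mcm3, Mcm6, Pcna, Cdk1, Aurka and Top2a) and 5 lower, the same 4 and Ccnd3. Top2a was higher by 1.26 and 1.14 against 67NR in 4T1.2 and 4T1, and by 0.81 and 0.69 against 66cl4. The log2 fold changes of Rb1 in 4T1.2 and 4T1 were -1.33 and -1.83 against 67NR, and -0.65 and -1.15 against 66cl4. Those of Ccnd2 were -1.26 and -1.15 against 67NR, and -2.58 and -2.47 against 66cl4.

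The 50 members lie on 18 chromosomes. In 4T1/4T1.2 against 66cl4/67NR, 7 of the 9 members on chromosome 2 were higher (Pcna, Aurka, Bub1, Bub1b, Ube2c, Tpx2 and Nusap1), Cdc25b was lower and E2f1 was not called, and the median of all genes of chromosome 2 was 0.21 on the log2 scale. Of the 41 members elsewhere, 20 were higher (48.8%) and 8 lower (19.5%), with a median log2 fold change of 0.23. The chromosomes of Top2a (11) and Kif11 (19) had medians of 0.30 and -0.16 over all their tested genes. For chromosome 14, which holds Rb1, the median was 0.51, opposite in sign to the change of Rb1.

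Other genes of the cell cycle, 116 in 5 lists, were counted in the same way, and 114 had enough counts to be tested. In the highly metastatic pair 50 were higher (43.9%) and 32 lower (28.1%), against 38.1% and 38.6% of all genes. In each direction 4 (3.51%) changed more than 2-fold, against 15.9% and 16.1%. Scaled by library totals, 38 were higher and 46 lower, so the balance turned. Of all 13922 genes, 4461 were then higher and 6187 lower, so this lean was not particular to these lists. Of 30 genes for origin licensing, the replication fork and histone supply, 17 were higher (56.7%) and 9 lower (30.0%). Of 47 genes of the spindle, kinetochore, cohesin, condensin and cytokinesis, 21 were higher (44.7%) and 11 lower (23.4%), which library totals turned to 15 and 16. Of 14 checkpoint kinases and activators of CDKs, 5 were higher (35.7%) and 1 lower (7.14%), which library totals turned to 3 and 7. Of 14 E2F, DREAM and MYB-MuvB factors, 4 were higher (28.6%) and 6 lower (42.9%), and of the 9 tested CDK inhibitors and brakes, 3 were higher (33.3%) and 5 lower (55.6%).

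The 3 largest increases were those of a checkpoint kinase and 2 replication genes. Chek1, the kinase of the replication checkpoint, had 181 and 204 CPM for 4T1.2, 201 and 207 for 4T1, 53.3 and 46.6 for 66cl4, and 51.3 and 50.4 for 67NR, and was higher in all 4T1.2 and 4T1 libraries (log2 fold change 1.98 ± 0.07, edgeR adjusted p = 3.16e-09). Cdc6, the loader of the MCM helicase, had 133 and 136 CPM for 4T1.2, 122 and 118 for 4T1, 38.8 and 43.1 for 66cl4, and 58.1 and 55.2 for 67NR (log2 fold change 1.40 ± 0.06, edgeR adjusted p = 1.72e-08). Gins1, a subunit of the active helicase, had 59.3 and 61.7 CPM for 4T1.2, 40.7 and 48.0 for 4T1, 17.2 and 19.4 for 66cl4, and 26.2 and 27.4 for 67NR (log2 fold change 1.23 ± 0.08, edgeR adjusted p = 2.70e-07). For all 3 the groups stood apart by more than the spread of the replicates.

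The 3 largest decreases were all brakes of proliferation. Cdkn1a, the kinase inhibitor p21, had 21.2 and 21.3 CPM for 4T1.2, 29.4 and 31.0 for 4T1, 133 and 159.8 for 66cl4, and 437 and 455 for 67NR, which is 10.1-fold lower in 4T1/4T1.2 cells (log2 fold change -3.33 ± 0.08, edgeR adjusted p = 1.38e-10). Btg2, an antiproliferative gene, had 9.02 and 7.96 CPM for 4T1.2, 9.48 and 9.39 for 4T1, 82.8 and 99.2 for 66cl4, and 77.1 and 67.1 for 67NR (log2 fold change -3.18 ± 0.09, edgeR adjusted p = 6.60e-10). Cdkn2a, the locus of the inhibitors p16 and p19ARF, had 0 counts in all 4 libraries of 4T1.2 and 4T1 and 21 to 50 counts in those of 66cl4 and 67NR. Against a floor of 3 counts per library, Cdkn2a was at least 14.1-fold lower in 4T1/4T1.2 cells, a bound that covers counting error only. Cdkn1a also differed within the low metastatic pair, at 133 and 159.8 CPM in 66cl4 and 437 and 455 CPM in 67NR.

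In 66cl4 against 67NR, the other replication genes repeated the direction of the members, with 17 of 30 lower in 66cl4 (56.7%) and 0 higher. All lists together had 6 higher (5.26%) and 37 lower (32.5%), against 22.3% and 22.4% of all genes. In 4T1.2 against 4T1, 15 of the 114 were higher (13.2%) and 1 was lower (0.877%), against 9.37% and 9.93%.

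Reads of some members can fall on other genes. Over 75-base stretches of their reference transcripts, 17 of the 50 members shared none with another gene and 14 shared more than 5%. The shared part was over 10% for 11 members, at 23.3% for Kif20a (with Cdc23), 20.6% for Ccnd1, 18.9% for Ccnb1 (with Ccnb1-ps), 15.7% for Cdk4 (with Tspan31), 13.8% for Pcna (with Pcna-ps2), 13.2% for Mcm7 (with Gm5487), 12.8% for Ccne2 (with Ints8), 10.8% for Ccna2 (with Exosc9), 10.7% for Cdc25c (with Gm3550), 10.4% for Rb1 (with Rcbtb2) and 10.1% for Ube2c (with Tnnc2), so the levels of these genes are less certain than those of Top2a (0.53%) or Kif11 (0.32%).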

How the data were processed

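RNA was taken from cultures of 4 tumour lines with 2 biological replicates each and prepared with TruSeq RNA v2. The deposited values are raw counts per Entrez gene, not normalized, which the authors obtained from alignments to mm10 (Rsubread, featureCounts). The strand setting and read depth of these libraries are not given in the sources used here. Of 27179 identifiers, 25275 (93.0%) matched a RefSeq gene table of GRCm38.p6. After filterByExpr (15269 genes), 533 unmatched, 695 predicted and 119 ribosomal genes were dropped. All 50 members were among the 13922 tested.

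A mean per line was fitted by edgeR's quasi-likelihood test (edgeR 4.0.16 in R 4.3.3, beside limma 3.58.1), using TMM scaling and a prior count of 0.125, leaving 4 residual degrees of freedom and a biological coefficient of variation of 9.74%. Adjusted p-values are Benjamini-Hochberg values over the 13922 genes, called under 0.05. RPKM used the gene lengths of the count matrix. On simulated counts with 200 genes changed, the pooled comparison recovered 91 of 100 genes changed by 1 on the log2 scale with 9 false calls, and 4T1.2 against 4T1 recovered 81 with 13 false calls. All other genes were left unchanged and no change was smaller than 1. The simulation therefore does not show how changes as small as those of most members are recovered.

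Values in every library are given for 12 members listed by symbol and, in each role, for the 2 members with the largest pooled change and the largest within each pair of lines among those called. Of the other cell cycle genes, the 3 largest in each direction are named. The members and lists were chosen with earlier results of these data known. The division by chromosome and the trend on gene length were added after seeing the data. Alternatives were other scalings, filters, DESeq2 1.42.0, limma-voom, a replicate block, removal of a trend on gene length and fits without each library. Figures used matplotlib 3.10.9 in Python 3.11.15. Endothelial libraries and imaging of the study were not analysed here.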

Additional observations from a re-analysis of the deposited data

How the results depend on the processing

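The counts of members called in 4T1/4T1.2 against 66cl4/67NR stayed within 20 to 30 higher and 8 to 11 lower over all alternatives run. With library totals in place of TMM scaling the median of all genes moved from -0.01 to -0.14 on the log2 scale and the share of higher among all calls from 49.7% to 41.9%, and members were then called 20 higher and 11 lower. The same scaling gave 8 lower members for 4T1.2 against 67NR and 9 higher and 14 lower ones for 4T1 against 67NR. The cause was not tested.

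Without 1 library at a time, the members called ranged from 1 to 14 higher in 4T1.2 against 4T1, from 2 to 10 higher and 5 to 15 lower in 66cl4 against 67NR, and from 4 to 7 lower in 4T1.2 against 67NR. These fits leave 1 library in a line, which is assumed to vary like the others. As a share of the counts of the tested genes only, the members held 1.698% for 4T1.2, 1.452% for 4T1, 1.503% for 66cl4 and 1.574% for 67NR, a smaller denominator by construction.

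With the trend on gene length removed, the pooled log2 fold change reversed to -0.039 for Ube2c, -0.17 for Cdkn2c, 0.27 for Kif14 and 0.23 for Ckap5. Without 1 library at a time, log2 fold changes ranged in 66cl4 against 67NR from -0.98 to 1.28 for Cenpf and from -0.97 to 0.60 for Mki67. They ranged in 4T1.2 against 66cl4 from -0.94 to 0.85 for Cenpe and from -0.90 to 0.67 for Mki67, and in 4T1 against 66cl4 from -0.85 to 0.93 for Cenpe and from -0.80 to 0.78 for Mki67. Each extreme came from leaving out 1 of the 66cl4 libraries.

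The labels do not say whether libraries with the same replicate number were prepared together. Deviations of same-numbered libraries correlated at -0.12 to 0.27 between lines, the highest for 4T1.2 with 4T1, which cannot decide this. A fit with the replicate block called 27 members higher and 9 lower in the pooled comparison, 11 higher in 4T1.2 against 4T1, and 8 higher and 15 lower in 66cl4 against 67NR. With 2 libraries per line, differences near the replicate spread cannot be shown.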
